A study of Homo sapiens with 6 samples.

Results

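Readthrough genes are annotated genes whose transcripts begin in one gene and end in its downstream neighbor. Of the 20381 genes in the deposited count table, 205 were described with the word readthrough and were taken as this class, without use of any measured value. A hyphenated symbol named the parent genes for 130 of them, and 75 had an Ensembl identifier but no symbol. The description marked 40 as candidates for nonsense-mediated decay (NMD). Of the 130 with a symbol, 121 had both named parents in the table and 9 had one of them, which gave 251 readthrough-parent pairs with 249 distinct parents.

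The libraries came from HCCLM3, a human hepatocellular carcinoma cell line, and the comparison asks what overexpression of *PON1*, the gene of a lipid-metabolizing enzyme secreted by the liver, did to gene expression. In PON1-OE the cells had been infected with a lentivirus carrying *PON1* and are labeled as a stable overexpression, and in NC they had received the empty vector lentivirus and are labeled as the control. For both groups the text of the series gives RPMI-1640 with 15% serum and lysis 24 h after transfection, while the study's methods give a lower serum content and puromycin-selected lines. Each group had 3 libraries of poly(A) RNA, and since the sources do not state how the replicates were derived, n counts libraries and p-values measure the spread between them, which may be technical.

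The total of the estimated counts was between 15706672 and 17948383 per library, and the readthrough genes took 0.0433% to 0.0490% of it. *PON1*, the check of the labels, was estimated at 0, 2 and 3 reads in NC against 155, 181 and 167 in PON1-OE, a difference of at least 60.0-fold when each NC library is set to a floor of 3 counts. All 10 hepatocyte markers were detected in both groups, with a summed level of 3774 to 4273 CPM (counts scaled to the library size, here with TMM factors) in NC against 3927 to 4161 CPM in PON1-OE. Nearly all of this sum was *KRT8* (2410 CPM in NC against 2352 CPM in PON1-OE) and *KRT18* (1528 against 1596 CPM). *HNF4A* was at 78.6 against 80.2 CPM and *ALB* at 0.578 against 0.456 CPM. *TTR* and *SERPINA1* had 4 counts each over all libraries, so the sum does not describe every marker. Of 3 leukocyte markers 2 were at 0 in every library and the sum was at most 0.293 CPM, the 3 fibroblast markers summed to at most 0.375 CPM, and the 3 endothelial markers summed to 13.3 to 13.8 CPM in NC against 14.1 to 16.4 CPM in PON1-OE. Nearly all of the endothelial sum was *PECAM1* (13.1 CPM in NC against 15.1 CPM in PON1-OE), with *VWF* at 0.480 CPM in both groups.

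A readthrough transcript arises when RNA polymerase II passes the poly(A) site of the upstream gene and goes on into the next gene on the same strand. Splicing then usually joins an exon of the upstream gene to an internal exon of the downstream gene, so that the last exon and the end signal of the upstream gene are skipped. Some of these RNAs encode fused proteins, and others carry an early stop codon and are targets of nonsense-mediated decay. Nearly all of their exons are also exons of the parents, so that few reads belong to them alone, above all the reads across the junction between the genes.

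The junctions of some of the members named below are printed first, because they are the sequences that set a readthrough transcript apart from its parents. Each shows 20 bases on either side, 5′ to 3′ on the strand of the transcript, read from GRCh38 with GENCODE v29, with the exon of the upstream parent in lower case and the exon of the downstream parent in capitals.
BCL2L2-PABPN1: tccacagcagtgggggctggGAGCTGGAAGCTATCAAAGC
MSANTD3-TMEFF1: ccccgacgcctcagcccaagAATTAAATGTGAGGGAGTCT
IFNAR2-IL10RB: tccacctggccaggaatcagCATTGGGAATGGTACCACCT
ARPIN-AP3S2: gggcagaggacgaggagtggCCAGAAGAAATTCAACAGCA
HNRNPUL2-BSCL2: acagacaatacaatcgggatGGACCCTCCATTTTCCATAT
All 5 lie in annotated coding sequence. In *BCL2L2-PABPN1* (chr14:23306835-23325369, plus strand) the exon of *BCL2L2* ends at 23308199 and the exon of *PABPN1* begins at 23322181. In *MSANTD3-TMEFF1* (chr9:100442271-100577636, plus strand) the junction joins 100442356, the end of exon 1, to 100498765. *IFNAR2-IL10RB* lies at chr21:33229901-33297160 on the plus strand, *ARPIN-AP3S2* at chr15:89834308-89912882 and *HNRNPUL2-BSCL2* at chr11:62690275-62727384, the last pair on the minus strand.

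GENCODE v29 held 182 of the 205 readthrough genes. Such parent-to-parent junctions were sought only in the 113 whose parents were both named by the symbol and present there. Junctions on the chromosome that holds *C8orf44-SGK3* and *ZHX1-C8orf76* were left out. With these limits, 74 members had a transcript with such a junction. In all 74 the 40 bases of a junction, though not necessarily of each of its junctions, were in no transcript of another gene. For 113 members both parents were found, and in all 113 they were on the same strand, with a median gap of 4760 bases, a gap under 10000 bases in 77 and overlapping parents in 12. The exons gave much less to tell the genes apart. All 182 shared exonic bases with another gene of the table on the same strand, against 11.3% of the 20126 table genes in GENCODE v29. The median member shared 97.8% of its exonic bases and had 52 exonic bases of its own. *MSANTD3-TMEFF1*, *IFNAR2-IL10RB*, *HNRNPUL2-BSCL2*, *ISY1-RAB43* and *FMC1-LUC7L2* had 0 bases of their own, and *BCL2L2-PABPN1* had 82 of 1548. Of the deposited values above 0, 93.7% were not whole numbers for readthrough genes, against 56.9% for their parents and 15.3% over the table. A value that is not whole is an estimate and not a tally of reads, and whether the shared bases made it so was not tested.

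Counts were recorded in at least one library for 149 of the 205 readthrough genes and in every library for 62, and 56 had none. Of the 149, 60 passed the filter on low counts and were tested within the whole table of 11958 genes by the quasi-likelihood test of edgeR, with p-values adjusted over all of them (Benjamini-Hochberg), and 89 did not pass. At an adjusted p under 0.05 and a fold change over 1.5, the thresholds of the study's methods, 2 of the 60 (3.33%) were called, against 0.0502% of all genes tested. Both were lower in PON1-OE, and both were also the only ones at an adjusted p under 0.05 alone, which 0.677% of all genes reached. At an unadjusted p under 0.05 there were 13 (21.7%, against 11.1% of all genes), of which 9 were lower (15.0%, against 5.17%) and 4 higher (6.67%, against 5.91%). Readthrough genes also varied more within groups than genes of like counts (median variance over mean 4.82 against 1.49, explained below). These shares are thus not like for like, and the effect of that spread on them was not tested. The groups did not overlap for 7 of the 60 (11.7%), a share below the 16.1% over all genes. The median log2FC of the 60 was −0.099, with 38 below 0 and 22 above, beside −0.0025 over all genes and −0.0049 over the 185 parents tested. In bulk RNA, fewer cells with a transcript and less of it per cell cannot be told apart.

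*BCL2L2-PABPN1* had the smallest adjusted p of the readthrough genes tested. Its parents encode BCL-W, a protein that protects cells from apoptosis, and the nuclear poly(A)-binding protein. The estimated counts were 180, 167 and 99 in NC against 87, 74 and 60 in PON1-OE. The groups did not overlap, though NC replicate 3 was near the highest PON1-OE library. Its level was 8.65 ± 2.60 CPM (SD, n = 3) in NC against 4.59 ± 0.734 CPM (SD, n = 3) in PON1-OE. This is a log2FC of −0.91 (standard error 0.19, adjusted p = 0.0293, edgeR), and the exact permutation test gave p = 0.1, the smallest that 3 against 3 libraries allow. The adjusted p ranged from 9.31e-05 to 0.211 over the alternatives that gave one, and the call was lost with limma-voom and without NC replicate 1 or 2 or PON1-OE replicate 2 or 3. Neither parent passed the test. *BCL2L2* had 556, 687 and 608 counts in NC against 550, 567 and 592 in PON1-OE (log2FC −0.0092, adjusted p = 0.977, edgeR). *PABPN1* had 1490, 1739 and 1700 in NC against 1452, 1493 and 1354 in PON1-OE (log2FC −0.093, adjusted p = 0.528, edgeR).

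*MSANTD3-TMEFF1* was called at the edge of the threshold. It joins *MSANTD3* to *TMEFF1*, the gene of a transmembrane protein with follistatin-like and EGF-like domains. The counts were 112, 149 and 159 in NC against 97, 71 and 78 in PON1-OE, so that the groups again did not overlap. The level was 8.11 ± 1.28 CPM (SD, n = 3) in NC against 5.11 ± 0.741 CPM (SD, n = 3) in PON1-OE, a log2FC of −0.67 (standard error 0.16, adjusted p = 0.04998, edgeR; exact permutation p = 0.1). With RLE size factors the adjusted p was 0.0508 (edgeR), and over all alternatives that gave one it ranged from 0.00478 to 0.347. The call held in 3 of 11 of these, namely without a filter, with at least 10 counts in every library and without NC replicate 1. The downstream parent *TMEFF1* was higher, with 38, 16 and 12 counts in NC against 22, 62 and 41 in PON1-OE (log2FC 1.02, standard error 0.39, unadjusted p = 0.0170, adjusted p = 0.315, edgeR). The upstream parent *MSANTD3* had a log2FC of −0.038 (adjusted p = 0.879, edgeR).

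The other readthrough genes with an unadjusted p under 0.05 and a lower level in PON1-OE had an adjusted p above 0.05 in this test. *PDCD6-AHRR*, an NMD candidate that joins the gene of a calcium-binding protein to that of the repressor of the aryl hydrocarbon receptor, had 31, 95 and 63 counts in NC against 0, 31 and 0 in PON1-OE. PON1-OE replicate 2 equaled the lowest NC library and the other two held none, so the fitted log2FC of −2.48 (standard error 0.61, adjusted p = 0.0743, edgeR) rests on counts at 0, and without that library the fit gave −8.93 (adjusted p = 0.000483, edgeR). *P2RX5-TAX1BP3*, from the genes of an ATP-gated ion channel and a PDZ-domain protein, had 25, 30 and 24 counts in NC against 7, 17 and 10 in PON1-OE (log2FC −1.10, standard error 0.36, adjusted p = 0.221, edgeR). *C8orf44-SGK3*, which ends in the gene of a serum- and glucocorticoid-regulated kinase, had 38, 32 and 20 counts in NC against 12, 17 and 12 in PON1-OE (log2FC −1.03, standard error 0.34, adjusted p = 0.229, edgeR). In both of these the groups did not overlap.

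The pairs *ISY1-RAB43* and *FMC1-LUC7L2* had more counts and smaller differences. *ISY1-RAB43* joins a splicing factor gene to that of a Golgi-associated GTPase, and had 408, 561 and 446 counts in NC against 247, 342 and 383 in PON1-OE (log2FC −0.43, standard error 0.12, adjusted p = 0.144, edgeR). *FMC1-LUC7L2*, from a gene for assembly of the mitochondrial ATP synthase and one for a U1-associated splicing factor, had 364, 410 and 400 in NC against 178, 300 and 339 in PON1-OE (log2FC −0.42, standard error 0.15, adjusted p = 0.257, edgeR). Neither overlapped between the groups, and PON1-OE replicate 1 was the lowest library in both. Without it the log2FC was −0.25 for *ISY1-RAB43* and −0.17 for *FMC1-LUC7L2*, and in the fit without a filter both had an adjusted p under 0.05 (0.00391 and 0.0232, edgeR). Of the members without a symbol, the readthrough of *UQCR11*, of respiratory complex III, and *MBD3*, of the NuRD complex (ENSG00000267059), had 62, 66 and 40 counts in NC against 43, 25 and 40 in PON1-OE (log2FC −0.53, adjusted p = 0.446, edgeR). The readthrough of *ARPC1A* and *ARPC1B*, subunits of the Arp2/3 actin-nucleating complex (ENSG00000284292, outside the rule for named genes and added after its values were seen), had 283, 287 and 206 in NC against 174, 151 and 220 in PON1-OE (log2FC −0.40, adjusted p = 0.245, edgeR). These last groups overlapped.

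Of the 4 readthrough genes higher in PON1-OE at an unadjusted p under 0.05, *ARMCX5-GPRASP2* had few counts, 3, 0 and 4 in NC against 10, 11 and 10 in PON1-OE (log2FC 2.19, standard error 0.66, adjusted p = 0.175, edgeR). It was the only one of the 4 without overlap, but it passed the filter on low counts only through its PON1-OE libraries. Its higher level, its lack of overlap and its place among the 4 are thus not independent of that filter. *POC1B-GALNT4*, from a centriole gene and the gene of an enzyme that starts O-glycosylation, had 33, 18 and 84 counts in NC against 70, 107 and 104 in PON1-OE (log2FC 1.16, standard error 0.32, adjusted p = 0.136, edgeR). NC replicate 3 lay within the range of PON1-OE, and without it the log2FC was 1.98 (adjusted p = 0.00362, edgeR). *IFNAR2-IL10RB* joins a subunit of the type I interferon receptor to the shared subunit of the interleukin-10 family receptors. It had 8, 17 and 17 counts in NC against 40, 34 and 13 in PON1-OE (log2FC 1.15, adjusted p = 0.242, edgeR), so PON1-OE replicate 3 was at the level of NC. *ARPIN-AP3S2*, from the gene of an Arp2/3 inhibitor and a subunit gene of the AP-3 adaptor, had 172, 161 and 184 in NC against 228, 164 and 187 in PON1-OE (log2FC 0.26, adjusted p = 0.445, edgeR), with overlap.

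**Figure D1:**
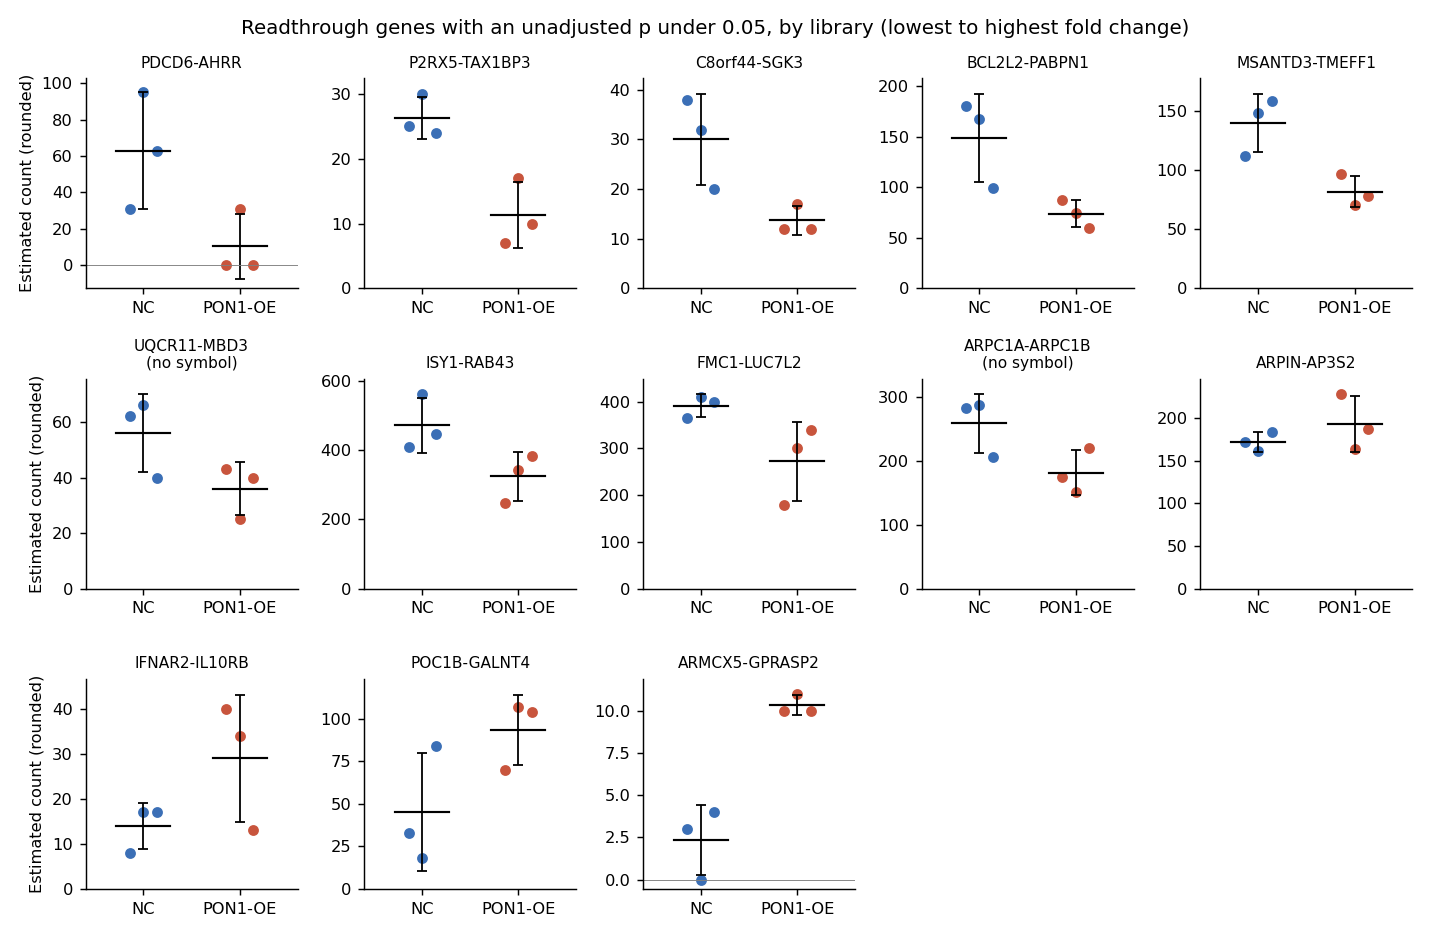
Rounded estimated counts (vertical axes, each from its own scale) of the 13 readthrough genes with an unadjusted p under 0.05 in NC and PON1-OE, with points for single libraries, horizontal lines for the mean and bars for the SD (n = 3). PDCD6-AHRR had 0 counts in 2 of 3 PON1-OE libraries, while BCL2L2-PABPN1 and MSANTD3-TMEFF1, the 2 called genes, lay below NC in every PON1-OE library.

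The readthrough genes with the most counts did not pass the test. *HNRNPUL2-BSCL2*, an NMD candidate whose downstream parent encodes seipin of lipid droplets, had 1381, 1432 and 1426 counts in NC against 1176, 1463 and 1042 in PON1-OE (log2FC −0.10, adjusted p = 0.694, edgeR). PON1-OE replicate 2 was the highest of all 6 libraries and replicate 3 the lowest. Without PON1-OE replicate 2 the log2FC was −0.25 (adjusted p = 0.0398, edgeR). *BOLA2-SMG1P6* (log2FC 0.051), *ANKHD1-EIF4EBP3* (−0.096), *TMEM276-ZFTRAF1* (0.011), *RPS10-NUDT3* (−0.061) and *POLR2J2-UPK3BL1* (0.18) had adjusted p-values of 0.628 to 0.976 (edgeR), and the groups overlapped in all of them. Summed over all 205 readthrough genes, the level was 477 ± 7.26 CPM (SD, n = 3) in NC against 447 ± 12.9 CPM (SD, n = 3) in PON1-OE, 6.31% lower, with no overlap. Without the 8 members with the highest mean CPM the sum was still 7.08% lower, at 190 ± 8.63 CPM (SD, n = 3) in NC against 176 ± 15.1 CPM (SD, n = 3) in PON1-OE, but the groups overlapped. The sum of these 8 alone was 5.80% lower, also with overlap. Without *BCL2L2-PABPN1* and *MSANTD3-TMEFF1* the sum was 5.00% lower with no overlap. The sum of the parents was 0.687% lower with overlap.

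Of the 40 NMD candidates, 11 were tested, with a median log2FC of −0.24 and 8 below 0 (72.7%, against 63.3% of the 60 readthrough genes and 51.0% of all genes). Of these 2 (18.2%, against 21.7% of the 60 and 11.1% of all genes) had an unadjusted p under 0.05, *PDCD6-AHRR* and *P2RX5-TAX1BP3* above, both lower in PON1-OE.

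Among the 89 members below the filter, the counts often stood in single libraries. Fitted without the filter, 11 of 149 readthrough genes had an adjusted p under 0.05 (7.38%), against 1.14% of 15542 genes, and 5 of the 11 were genes that the filter had removed. The readthrough of *C11orf54* and *MED17*, a Mediator subunit (ENSG00000284057), had 0 counts in all NC libraries and 0, 14 and 78 in PON1-OE, which with each NC library set to a floor of 3 counts is at least 11.2-fold higher. PON1-OE replicate 3 carried most of this, and without it the bound was 2.51-fold. *RTEL1-TNFRSF6B*, from the genes of a telomere helicase and a decoy receptor for Fas ligand, had 0 in all NC libraries and 2, 5 and 17 in PON1-OE, by the same floor at least 2.90-fold higher, and at least 1.2-fold without PON1-OE replicate 3. *PEDS1-UBE2V1* had 26 counts in PON1-OE replicate 1 and 0 in the other 5 libraries. A single library carried the whole difference there. *EFNA4-EFNA3*, which joins 2 ephrin-A ligand genes, had 0, 16 and 28 counts in NC against 0, 0 and 3 in PON1-OE. The readthrough of *HAUS3*, of the augmin complex of the spindle, and *POLN*, a DNA polymerase (ENSG00000290263), had 14, 17 and 8 in NC against 0, 0 and 4 in PON1-OE. *HAUS3* itself had 276, 338 and 246 in NC against 281, 238 and 238 in PON1-OE, and *C11orf54* and *MED17* had log2FC of 0.023 and −0.039. The counts at 0 are those assigned to the readthrough genes, and how reads were divided within these loci was not tested. *TNFRSF6B*, the downstream parent of *RTEL1-TNFRSF6B*, had 5, 8 and 4 counts in NC against 0, 1 and 0 in PON1-OE, the reverse of the readthrough gene.

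Readthrough genes and parents were next compared for direction. Both genes were tested in 76 pairs of 43 members, and in 35 of the 76 (46.1%) the log2FC had opposite signs, beside 48.3% of 7937 pairs of neighboring same-strand genes that are not readthrough genes. In this fit the share was no higher than that of the neighboring pairs. Pairs in which both had an unadjusted p under 0.05 (edgeR) and opposite signs numbered 3 (3.95%, against 0.454% of the neighboring pairs), and all 3 concerned the downstream parent. The first was *MSANTD3-TMEFF1* with *TMEFF1*, given above. *ISY1-RAB43* was lower and *RAB43* was at 823, 736 and 764 counts in NC against 967, 794 and 794 in PON1-OE (log2FC 0.24, standard error 0.077, adjusted p = 0.216, edgeR). *POC1B-GALNT4* was higher and *GALNT4* was at 459, 502 and 406 in NC against 420, 322 and 357 in PON1-OE (log2FC −0.21, standard error 0.091, adjusted p = 0.391, edgeR). In 1 pair both had such a p and the same sign, *ARPIN-AP3S2* with the upstream *ARPIN* (213, 224 and 186 counts in NC against 270, 218 and 285 in PON1-OE, log2FC 0.41, adjusted p = 0.119, edgeR).

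**Figure D2:**
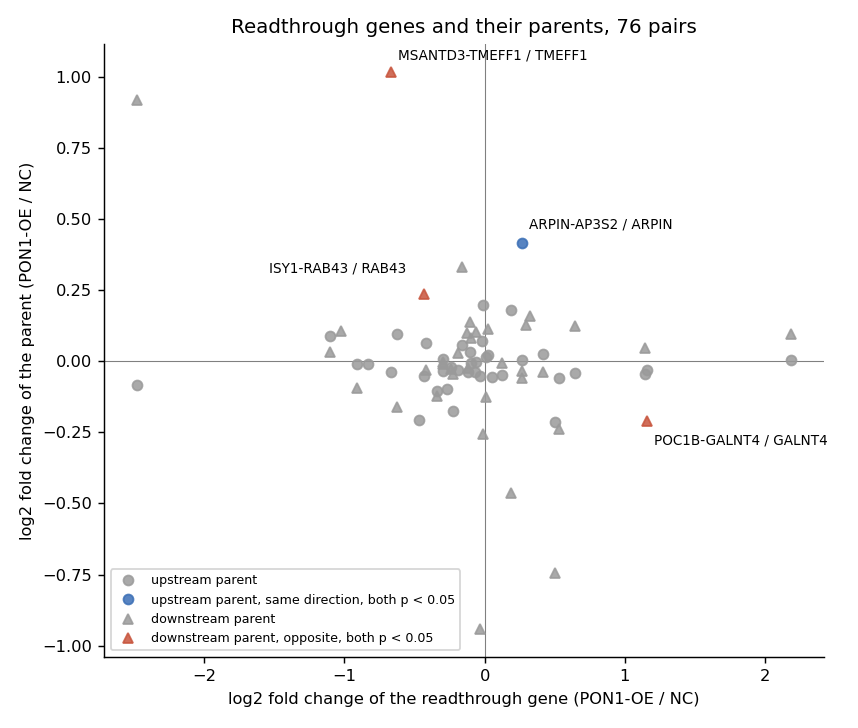
log2 fold change of the readthrough gene (horizontal) and of its parent (vertical), PON1-OE against NC, for 76 pairs, with circles for upstream and triangles for downstream parents. The readthrough genes span −2.48 to 2.19 and the parents −0.94 to 1.02, and 3 downstream parents (red) lie opposite to their readthrough gene with both at an unadjusted p under 0.05.

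The difference itself was tested on the log2 ratio of readthrough gene to parent in each library, with limma on one table of all genes and all pairs, in which library size cancels. No pair had an adjusted p under 0.05 (limma, 0 of 76, against 0.44% of all rows), and 21 (27.6%, against 11% of all rows) had an unadjusted p under 0.05. Pairs of one member share its counts, so the 21 pairs are not independent. The smallest adjusted p was 0.0583 (limma), for *PDCD6-AHRR* against *AHRR*, with a difference of −6.79 (standard error 1.52) on the log2 scale after 0.5 was added to each count, a value that counts at 0 set in part. *AHRR* had 58, 1 and 41 counts in NC against 64, 45 and 69 in PON1-OE (log2FC 0.92, standard error 0.46, adjusted p = 0.466, edgeR). The library with the most *PDCD6-AHRR*, NC replicate 2 with 95 counts, was the one with the least *AHRR*. For *BCL2L2-PABPN1* the log2 ratio differed by −0.87 (standard error 0.21, adjusted p = 0.0834, limma) against *BCL2L2* and by −0.78 (standard error 0.21, adjusted p = 0.123, limma) against *PABPN1*. Against *MSANTD3* the log2 ratio of *MSANTD3-TMEFF1* differed by −0.62 (standard error 0.16, adjusted p = 0.103, limma), and against *TMEFF1* by −1.72 (standard error 0.49, adjusted p = 0.160, limma).

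Among the pairs with a parent further from 0 than the readthrough gene, *POLR2J2-UPK3BL1* had 265, 259 and 204 counts in NC against 270, 294 and 207 in PON1-OE while *UPK3BL1* had 188, 271 and 252 in NC against 177, 156 and 146 in PON1-OE. The log2 ratio was higher by 0.63 (standard error 0.16, adjusted p = 0.103, limma) and did not overlap between the groups. *UPK3BL1* had the smallest adjusted p of the 185 parents tested (0.0909, edgeR), and 15 of the parents (8.11%, against 11.1% of all genes), 8 higher and 7 lower, had an unadjusted p under 0.05. For members without a symbol the description named the parents of 15 that were tested, in 27 pairs. Of these pairs, 13 had opposite signs (48.1%, against 48.3% of neighboring pairs), 4 had an unadjusted p under 0.05 for the difference (14.8%, against 11% of all rows) and 0 an adjusted one (limma). Of all 91 tested parents that descriptions named, 9 had an unadjusted p under 0.05 (9.89%) and 2 an adjusted one (2.2%, against 0.677% of all genes, edgeR), and these 2 are named after their values were seen. *F11R*, the gene of a tight junction adhesion molecule, had 1394, 1719 and 1441 counts in NC against 1645, 1750 and 1621 in PON1-OE (log2FC 0.25, standard error 0.054, adjusted p = 0.0380, edgeR). Its readthrough with *TSTD1* (ENSG00000270149) overlapped between the groups, with a log2FC of 0.11 (adjusted p = 0.877, edgeR). *CEACAM6*, of a cell adhesion glycoprotein, had 5797, 5843 and 5251 in NC against 6516, 5923 and 5910 in PON1-OE (log2FC 0.22, standard error 0.044, adjusted p = 0.0199, edgeR), and its readthrough with *CEACAM5* had 0 counts in every library.

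The counts of each readthrough gene and its parents were also added, since such a sum does not depend on how reads were divided within the locus. The sums mostly hold the counts of the parents, with a share for the readthrough gene in NC of 0.387% at *P2RX5-TAX1BP3*, 2.94% at *PDCD6-AHRR* and 20.9% at *ISY1-RAB43*, so a sum says little of a change in a readthrough gene with a small share. Of 128 loci 115 were tested in place of the single genes, and 0 had an adjusted p under 0.05 in edgeR (against 0.692% of all rows), with DESeq2 and with limma-voom. At an unadjusted p under 0.05 there were 6 (5.22%, against 11.2%, edgeR). The sum at *BCL2L2-PABPN1* was among them (log2FC −0.11, standard error 0.044, unadjusted p = 0.0241, adjusted p = 0.363, edgeR). Its sum was 139.8 ± 4.44 CPM (SD, n = 3) in NC against 129.6 ± 3.39 CPM (SD, n = 3) in PON1-OE, and 4.06 CPM of the decrease of 10.2 CPM was in the readthrough gene. The share of the locus counts that was assigned to the readthrough gene, a value not corrected for length, was 6.21% ± 2.0 (SD, n = 3) in NC against 3.54% ± 0.590 (SD, n = 3) in PON1-OE.

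At *ISY1-RAB43* the readthrough gene and *RAB43* differed in opposite directions, and the sums of the groups overlapped. The readthrough gene was lower by 7.0 CPM, *ISY1* was lower by 2.10 CPM, *RAB43* was higher by 7.96 CPM, and the sum was 130.7 ± 2.58 CPM (SD, n = 3) in NC against 129.6 ± 4.08 CPM (SD, n = 3) in PON1-OE (log2FC −0.0094, adjusted p = 0.963, edgeR). *POC1B-GALNT4* had 3.22 CPM more for the readthrough gene, 3.62 CPM less for *GALNT4* and 0.324 CPM less for *POC1B*, and a sum of 45.0 ± 0.180 CPM (SD, n = 3) against 44.3 ± 2.84 CPM (SD, n = 3). Its share of the locus counts was 5.87% ± 4.56 (SD, n = 3) in NC against 13.3% ± 3.56 (SD, n = 3) in PON1-OE. At *MSANTD3-TMEFF1* the readthrough gene was lower by 3.01 CPM and *TMEFF1* higher by 1.31 CPM (log2FC of the sum −0.066, adjusted p = 0.735, edgeR).

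**Figure D3:**
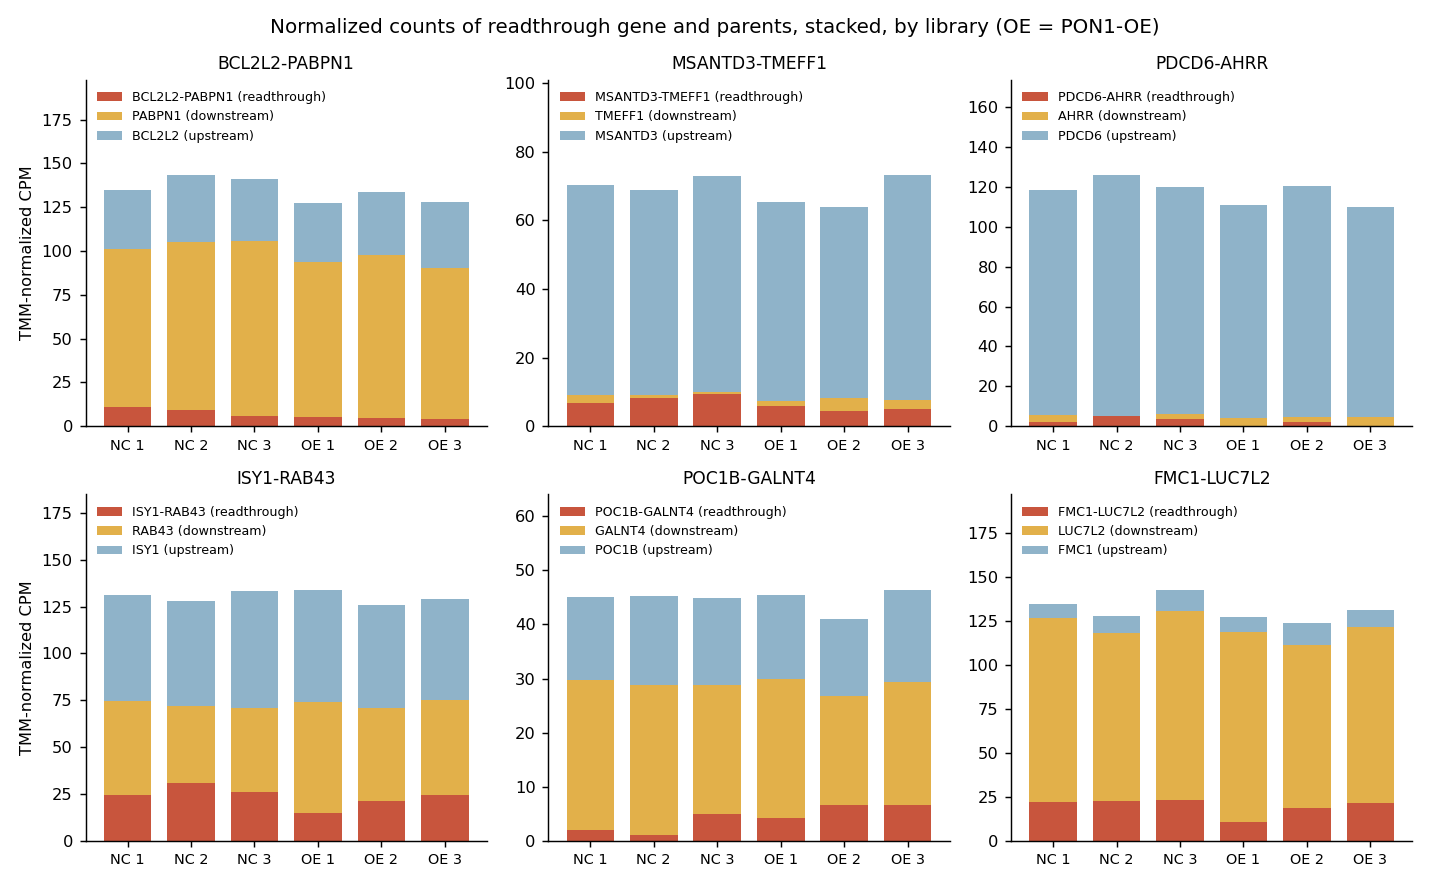
TMM-normalized CPM (vertical axes, from 0) of 6 readthrough genes and their parents in each library, stacked so that the bar height is the locus sum. At ISY1-RAB43 the readthrough part (red) averages 27.3 CPM in NC against 20.3 CPM in PON1-OE, and the parents make up most of every bar.

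The libraries of one group also differed from each other. For each gene the variance over the mean of the scaled counts was taken within groups, which is about 1 where only counting error acts. Between a mean of 10 and 200 counts its median was 4.82 for 46 readthrough genes and 1.49 for all 3475 genes tested in that range. Of the 60 readthrough genes, 48 (80.0%) lay above the upper quartile of all genes with a like mean. Within one group, 9 of the 60 (15.0%, against 0.234% of all genes tested) had 0 counts in one library and at least 20 in another. *ATP6V1G2-DDX39B* had 6, 134 and 0 counts in NC against 60, 61 and 36 in PON1-OE, and *TIMM23B-AGAP6* had 0, 32 and 0 in NC against 26, 0 and 16 in PON1-OE, both named after their values were seen. Such counts come and go between libraries that carry the same label. How this spread bears on the shares of readthrough genes and pairs set beside those of all genes was not tested.

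**Figure D4:**
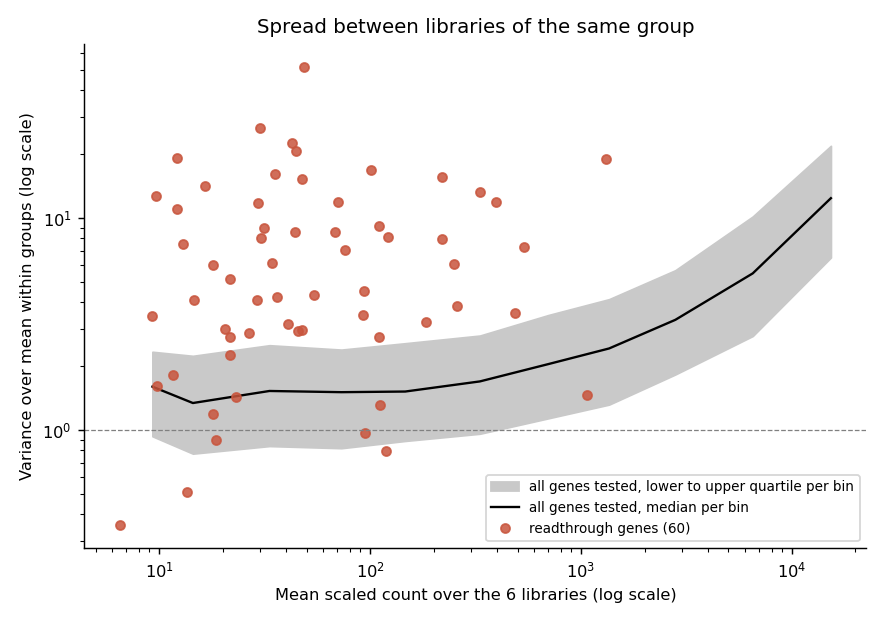
Variance over mean of scaled counts within groups (vertical, log scale) against the mean scaled count over the 6 libraries (horizontal, log scale), with points for the 60 readthrough genes, a line for the median of all genes tested and a band from their lower to upper quartile in bins of the mean. The dashed line marks 1, the value for counting error alone, and 48 of the 60 points lie above the band.

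The deviations of a readthrough gene and its downstream parent from their group means often ran in opposite directions. Over the 6 libraries, with the group means taken out, Pearson's r of the log2 levels was negative in 28 of 37 pairs with the downstream parent (75.7%) and had a median of −0.53. For the 39 pairs with the upstream parent the median was −0.036, with 22 negative, and for the 7937 neighboring pairs it was 0.081, with 44.8% negative. An r under −0.8 occurred in 10 of the 37 downstream pairs (27.0%), in 1 of the 39 upstream pairs (2.56%) and in 4.99% of the neighboring pairs. These values describe 6 libraries, whose genes share depth and whose pairs share exonic bases, and the part of this sharing in them was not tested. The counts of *MSANTD3-TMEFF1* given above are an example, since in NC the library with the fewest (112) had the most *TMEFF1* (38), and in PON1-OE the library with the fewest (71) also had the most *TMEFF1* (62). At *ISY1-RAB43* the highest NC library (561) had the lowest *RAB43* (736), and the lowest PON1-OE library (247) had the highest *RAB43* (967). At *ARPIN-AP3S2* the highest PON1-OE library (228) had the lowest *AP3S2* (702). The r of these example pairs was −0.98, −0.87 and −0.94, among the lowest of the 76 pairs. Whether the opposite movement between the groups in the pairs above is related to such deviations was not tested.

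**Figure D5:**
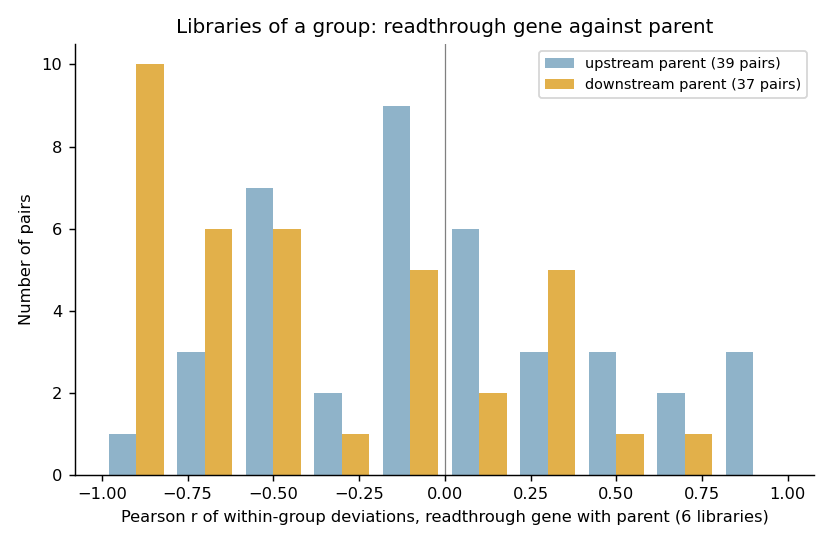
Number of pairs (vertical) by Pearson's r of the within-group deviations of readthrough gene and parent over the 6 libraries (horizontal), in blue for 39 upstream and in yellow for 37 downstream parents. The downstream pairs gather at negative values with a median of −0.53, and the upstream pairs have a median of −0.036.

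The genes that end transcription and remove faulty RNAs were looked at beside the readthrough genes. Of 38 genes for 3′ end processing and termination, all tested, 6 (15.8%, against 11.1% of all genes) had an unadjusted p under 0.05 (edgeR), all between −0.14 and 0.15 on the log2 scale, and the median of the list was −0.044. *CSTF3*, of the cleavage stimulation factor, was higher (log2FC 0.15, adjusted p = 0.446, edgeR). The other 5 were lower, and they were *PCF11*, which couples cleavage to termination (−0.14), *NUDT21*, a subunit of cleavage factor I that guides the choice of poly(A) site (−0.13), *SSU72*, a phosphatase of the polymerase tail (−0.093), and *CDC73* and *LEO1*, subunits of the PAF1 elongation complex (both −0.14). *PCF11* had the smallest adjusted p of the list, 0.289 (edgeR), with 1430, 1536 and 1439 counts in NC against 1319, 1261 and 1151 in PON1-OE. Its mean level was 85.3 CPM in NC against 77.5 CPM in PON1-OE. With DESeq2, 2 genes of this list had an unadjusted p under 0.05.

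Of 21 genes of nonsense-mediated decay, all tested, 3 (14.3%, against 11.1% of all genes) had an unadjusted p under 0.05 (edgeR), and all 3 were lower in PON1-OE. They were *UPF3A* (log2FC −0.29) and *UPF3B* (−0.12), which link the exon junction complex to the decay machinery, and *GSPT1* (−0.099), a release factor of translation termination. *GSPT1* had the smallest adjusted p of this list, 0.252 (edgeR). The median of the list was −0.0091. No relation between these genes and the readthrough genes was tested.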

How the data were processed

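RNA-seq was carried out on 3 PON1-OE and 3 NC libraries of HCCLM3 cells. The authors deposited one table of estimated counts per gene, without normalization. The submitters' processing notes name Bowtie2 2.2.8, HISAT2, StringTie 1.3.1 and DESeq2, and the counting tool, build and annotation are not given in the sources used here. Counts were rounded, and all fits were made in R 4.3.3 using edgeR 4.0.16 (filterByExpr, TMM, quasi-likelihood), limma 3.58.1 and DESeq2 1.42.0. Parents were matched by symbol, and 10 parent names had no match. Coordinates, exons and junctions come from GENCODE v29 on GRCh38, which may differ from the authors' annotation. Pair ratios had 0.5 added to each count. Floors of 3 counts (0.166 to 0.192 CPM) cover only counting error. The exact permutation tests are two-sided. Fits were tested on simulated counts with the same low spread for every gene and no reads shared between genes. The spread of the readthrough genes was larger, so the simulation does not test the fits for them.

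Named genes are members with an adjusted p under 0.05, with the filter or, if removed by it, without, up to 8 per direction with the largest |log2FC| at an unadjusted p under 0.05, the 8 with the highest mean CPM, members of pairs past the adjusted p, their parents, list genes at an unadjusted p under 0.05 and *PON1*. Members, lists and tests were chosen with earlier results of these data known. Parents from descriptions and the spread within groups were added after seeing the data. Alternatives were RLE size factors, other filters, the replicate block, each library left out, DESeq2, limma-voom, other fold thresholds, 2 added counts and summed parents. Pairs of libraries of a group differed by more than sampling noise (chi-square per degree of freedom 2.11 to 4.11).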

Additional observations from a re-analysis of the deposited data

How the results depend on the processing

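The count of 2 called readthrough genes was 1 with RLE size factors, 9 without a filter, 0 with DESeq2, 1 with limma-voom, 0 at |log2FC| over 1, and 0 to 2 with single libraries left out (1 without PON1-OE replicate 2, 0 without PON1-OE replicate 3). DESeq2 also tested genes that the filter removed and gave neither called gene an adjusted p. At an unadjusted p, 13 became 38 without a filter and 12 to 21 with single libraries left out (21 without NC replicate 2 or 3, 20 without PON1-OE replicate 3), while the share stayed above that of all genes in every setting run. The median log2FC ranged from −0.23 (without PON1-OE replicate 1) to −0.069. Pairs of opposite sign numbered 100 of 189 without a filter and with DESeq2 (52.9%). With single libraries left out they numbered 36 to 47, a share of 46.2% (without NC replicate 3) to 57.3% (without PON1-OE replicate 3) of the pairs tested. The share of neighboring pairs was not computed for these settings. Pairs of opposite sign with both at an unadjusted p numbered 5 without a filter and 2 to 5 with single libraries left out (5 without NC replicate 1). Differences at an adjusted p numbered 1 without a filter, 2 with at least 10 counts in every library, 1 with 2 added to each count and 0 to 4 with single libraries left out (3 without NC replicate 1 or PON1-OE replicate 2, 1 without NC replicate 2, 4 without NC replicate 3). Locus sums at an adjusted p numbered 1 without a filter and 0 to 1 with single libraries left out (1 without NC replicate 2). The 3′ end list had 2 genes with DESeq2 and 2 to 5 with single libraries left out (3 without NC replicate 1, 2 without NC replicate 2 or PON1-OE replicate 1), and the decay list 1 to 2 (1 without PON1-OE replicate 2). The log2FC changed sign without single libraries for *ANKHD1-EIF4EBP3* (−0.20 to 0.019, the latter without NC replicate 1), *TMEM276-ZFTRAF1* (−0.028 without NC replicate 1, −0.040 without NC replicate 2, −0.027 without PON1-OE replicate 1, at most 0.11) and *RPS10-NUDT3* (−0.21 to 0.029, the latter without PON1-OE replicate 3). That of *PON1* was 6.13 to 7.33. The cause of these changes was not tested beyond the different genes and libraries that enter each fit.

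The libraries share replicate numbers, but deviations of same-numbered libraries did not go together (r = 0.000641, −0.0063 and 0.051), so the numbers are not taken as pairs. With the replicate block, 2 readthrough genes were called, *BCL2L2-PABPN1* and, in place of *MSANTD3-TMEFF1*, *PDCD6-AHRR*, 16 had an unadjusted p under 0.05, 38 pairs had opposite signs and 4 pairs of *BCL2L2-PABPN1*, *ISY1-RAB43* and *PDCD6-AHRR* differed at an adjusted p (limma).

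At these depths, the 60 readthrough genes tested had a median of 43.3 counts per library, and the deposited values do not tell junction reads from shared ones.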
